A study of Mus musculus with 10 samples.

Results

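The wild-type intermediate lobe of the mouse pituitary is described here from the 5 libraries that the sample titles name p27wt, of 10 libraries in the series. They were chosen by genotype label alone, and no mutant library is compared with them. The series holds RNA-seq of intermediate lobes dissected from WT mice and from P27-/- mice, which lack *Cdkn1b*, the gene of the cell cycle inhibitor p27. Of the WT libraries, 3 came from mice of 2 months and 2 from mice of 7 months. Per the study's methods the mice were not of an inbred strain, WT animals need not have been littermates of the mutants, and the libraries of a group were biological replicates. The lobe was taken whole, so each library holds melanotrophs together with the stem cells, vessels and neighbouring lobe tissue that came with them, and fewer cells of a type and less RNA per cell cannot be told apart in such samples.

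Melanotrophs are the endocrine cells of the intermediate lobe. They make pro-opiomelanocortin, the precursor encoded by *Pomc*, cut it with the convertase encoded by *Pcsk2* into melanocyte-stimulating hormone and beta-endorphin, and store the peptides in dense-core granules until calcium entry releases them. Dopamine from hypothalamic neurons holds this release back through the receptor encoded by *Drd2*, and the transcription factors *Tbx19* and *Pax7* set the identity of the cell.

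The deposited values are log2 normalised expression per gene. They are called log2 levels here. A longer transcript gives more reads, so genes were compared with each other on a per-kb level, which is the log2 level less log2 of the gene's exonic length in kilobases. A total of 16393 nuclear genes (of 39006 nuclear gene IDs) averaged at least 10 in linear units over the WT libraries and were ranked, and 14080 of them had a length. The first 1000 genes made up 6.1% of the ranked genes by log2 level and 7.1% by per-kb level. These shares are the background for each count of list members below. The lists were chosen with earlier results of these data known. A share above the background thus describes the listed genes and not the class they come from.

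The libraries resembled one another in rank but differed in several measured ways. Spearman's rho between libraries over the ranked genes lay between 0.958 and 0.985 (10 pairs), and a pair shared 814 to 916 of its first 1000 genes. The first 1000 genes of the mean ranking took 48.6% to 50.2% of the nuclear total. Mitochondrially encoded genes took 19.3% to 41.1% of the back-transformed total, highest in 2-month replicate 3, and the correlation of each gene's deviation from its WT mean with exonic GC content (Spearman, 13158 genes, not independent replicates) ran from -0.32 in 2-month replicate 1 to 0.50 in 7-month replicate 1. The part of these in the levels below was not tested, and a GC correction was run for the age comparison alone. *Xist*, the RNA that silences the inactive X chromosome of females, stood at log2 levels of 14.21 and 14.51 in the 7-month libraries and at 7.32, 7.70 and 7.52 in the 2-month libraries. *Ddx3y*, a gene of the Y chromosome, had the opposite pattern, at 4.76 to 4.77 against 8.97 to 9.19. The study's record of animals names male and female mice at 7 months, which 1 of the libraries labelled 7 months goes against. Age and sex cannot be told apart within the WT libraries.

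All 5 melanotroph markers were ranked, and 4 of the 5 were among the first 1000 in every library. *Pomc* (chr12:3954945-3960643 of GRCm38) was second by log2 level in 5 of 5 libraries. Among genes with a length it was first by per-kb level in 5 of 5. *Pcsk2* (chr2:143546133-143816284) ranked between 16 and 20 by log2 level, *Pax7* (chr4:139737059-139833530) between 143 and 290, and *Drd2* (chr9:49340360-49408177) between 177 and 392. *Tbx19* (chr1:165137834-165160773) lay just outside by log2 level, at 1071 to 1468, and inside by per-kb level, at 476 to 763. The defining markers of the labelled tissue were thus present, and *Prl*, a hormone gene of the neighbouring anterior lobe, ranked 27.

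*Pomc* stood apart from every other endocrine transcript. Its log2 level was 16.53, 17.09 and 16.78 in the 2-month libraries and 16.25 and 16.12 in the 7-month libraries. The 7-month libraries were the lowest and the ages did not overlap, which held for 35.5% of all genes tested, and the difference of -0.61 was not called (limma, adjusted p = 0.311). *Pomc* alone took 1.3% to 2.46% of the nuclear total. The IDs ranked 3, 4, 5 and 9 by log2 level had no length and so no per-kb level. Per kb, among genes with a length, *Pomc* exceeded the next gene, the nuclear non-coding RNA *Malat1*, by 1.94 ± 0.56 (SD, n = 5). It exceeded *Chgb*, the highest granule gene, by 4.39 ± 0.34. Without the length correction the order turned, and the difference between *Pomc* and *Malat1* was -0.86.

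The 25 highest named nuclear genes joined that hormone to granule, folding and general cell genes. After *Malat1* (17.41 ± 0.28) and *Pomc* (16.55 ± 0.39) came the imprinted genes *Peg3* (14.96 ± 0.05) and *Meg3* (14.41 ± 0.28) at log2 level. *Zbtb20*, a zinc finger transcription factor, stood at 14.03 ± 0.21, and *Map1b*, a microtubule-binding protein of neurons, at 13.97 ± 0.23. *Gnas*, the stimulatory G protein subunit at a locus of overlapping transcripts whose reads may be shared, was at 13.94 ± 0.51 and *Hsp90b1*, a chaperone of the endoplasmic reticulum, at 13.67 ± 0.26. The set also held *Chgb*, *Pcsk2* and *Scg2* of the secretory lists and *Snap25* of the release machinery. Its other members were *AF085738*, *Oacyl*, *Ttn*, *Prrc2c*, *Usp9x*, *Heg1*, *Ywhaz*, *Gm10800*, *Eef1a1*, *Nedd4*, *Prl*, *Ddx5* and *Srrm2*, with mean log2 levels from 13.00 for *Srrm2* to 14.37 for *AF085738*.

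Length moved some of these genes far down. *Ttn*, which encodes the giant muscle protein titin and has 116.8 kb of exons, ranked 18 by log2 level and 2667 by per-kb level. *Zbtb20*, with 30.73 kb, went from 10 to 189. Short genes moved up, with *Gh*, which encodes growth hormone, going from 45 to 6 and *Calm2*, a calmodulin gene, from 90 to 12. Another 5 IDs within the first 30 had no symbol and no length in the tables used here, so they had no per-kb rank.

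**Figure D1:**
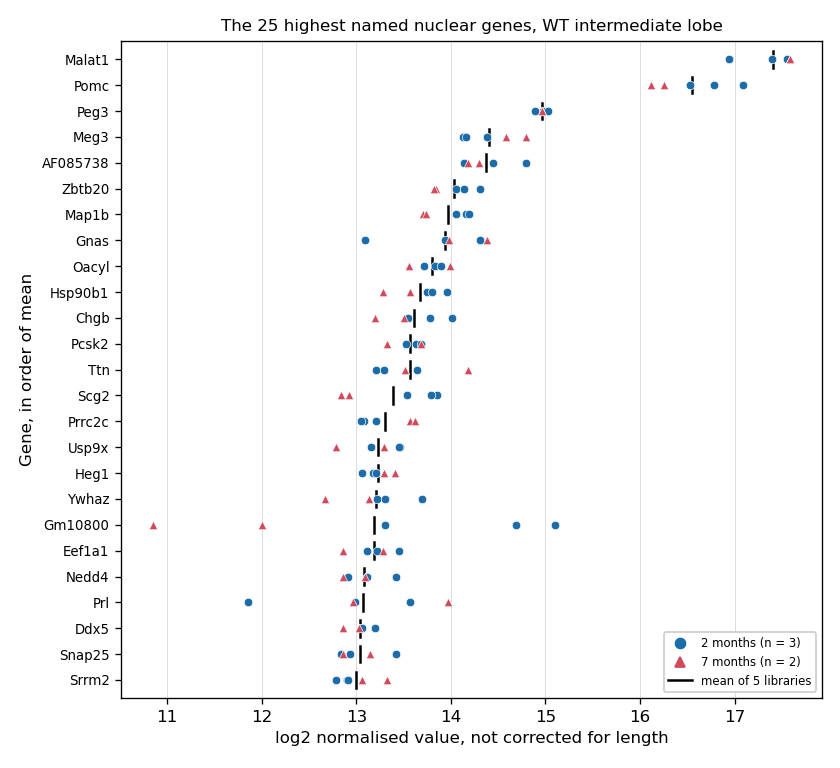
Log2 normalised value (not corrected for length) of the 25 highest named nuclear genes in each WT library, with 2-month libraries as circles, 7-month libraries as triangles and the mean of 5 as a black line. *Malat1* and *Pomc* stand above the rest, *Peg3* has the narrowest spread (SD 0.05), and *Gm10800* and *Prl* the widest (SD 1.79 and 0.80).

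Few other genes of the peptide hormone list were high. Of 24 listed, 9 were ranked and 1 (11.1%), *Pomc*, was among the first 1000 by log2 level, while by per-kb level 2 were, *Pomc* and *Cga*. The hormone genes *Prl* and *Gh*, which are in the anterior lobe list and not in this one, ranked 27 and 45 by log2 level and 5 and 6 by per-kb level. Second in the hormone list by per-kb level was *Cga*, the shared subunit of the glycoprotein hormones made in the anterior lobe, at 10.03 with log2 levels of 11.44, 10.33 and 10.79 at 2 months and 9.58 and 7.68 at 7 months. *Pdyn*, the precursor of dynorphins, followed at 5.37 per kb. The 14 members below the minimum level were *Vip*, *Cck*, *Sst*, *Tac1*, *Calca*, *Trh*, *Nts*, *Adcyap1*, *Cartpt*, *Nmu*, *Npy*, *Calcb*, *Crh* and *Ghrh*, with mean log2 levels from -1.88 for *Ghrh* to 2.65 for *Vip*. Values that low do not show that a transcript was absent. *Ucn2* was not analysed here.

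The genes of prohormone processing were spread over the whole ranking, with *Pcsk2* and *Cpe* near its top. All 16 members of the prohormone processing list were ranked and 4 (25%) were among the first 1000 by log2 level, namely *Pcsk2*, *Cpe*, *Pam* and *Cpd*. By per-kb level the count was 5. At the other end *Furin*, *Qsox1*, *Pcsk7*, *Pcsk6*, *Pcsk5*, *Qpct*, *Pcsk4* and *Cpz* ranked from 6878 for *Furin* to 15558 for *Cpz* by log2 level. *Pcsk2* was at log2 levels of 13.53, 13.63, 13.69, 13.33 and 13.69 (2-month replicates 1 to 3, then 7-month replicates 1 and 2), and its ages overlapped. *Cpe*, the carboxypeptidase that trims basic residues after cleavage, stood at 11.33, 11.71 and 11.78 at 2 months and at 11.31 and 11.23 at 7 months. *Pam*, which amidates the end of melanocyte-stimulating hormone, lay between 10.62 and 10.92 in all 5.

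The convertases divided by level. *Pcsk1*, which makes adrenocorticotropic hormone from POMC in the corticotrophs of the anterior lobe, was at 9.03, 8.25 and 8.69 at 2 months and at 7.98 and 8.08 at 7 months. Per kb, *Pcsk2* exceeded *Pcsk1* by 3.88 ± 0.43 (SD, n = 5), with a range of 3.21 to 4.33 and the same direction in 5 of 5 libraries. The exact sign-flip permutation test gave the smallest two-sided p that 5 libraries allow, which does not reach 0.05. The difference was 4.35 with the longest transcript as length, 5.41 with the coding length and 5.17 with no length correction. *Scg5*, the chaperone of *Pcsk2*, exceeded *Pcsk1n*, an inhibitor of *Pcsk1*, by 1.77 ± 0.43. *Cpe* exceeded *Cpd* by 2.72 ± 0.26. The convertase genes *Furin*, *Pcsk7*, *Pcsk6*, *Pcsk4* and *Pcsk5* had mean per-kb levels between 2.70 and 4.18, against 6.71 for *Pcsk1*.

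Granule cargo was led by chromogranin B and secretogranin II. Of 17 granule genes, 15 were ranked and 8 (53.3%) were among the first 1000, against the background of 6.1%: *Chgb*, *Scg2*, *Ptprn*, *Chga*, *Ptprn2*, *Cadps2*, *Scg3* and *Sytl4*. By per-kb level 10 were. *Chgb* had log2 levels of 13.78, 13.55 and 14.01 at 2 months and of 13.51 and 13.19 at 7 months. *Scg2* had 13.86, 13.54 and 13.79 at 2 months and 12.92 and 12.84 at 7 months. Both had their lowest values in 7-month replicate 2 and neither had overlapping ages, but neither difference was called (limma, adjusted p = 0.290 and 0.061). Per kb, *Chgb* was above *Scg2* in 3 of 5 libraries, so their order did not hold beyond the spread. *Chgb* exceeded *Chga*, the gene of chromogranin A, by 2.20 ± 0.44 in 5 of 5. *Resp18*, a granule protein of endocrine cells, came after *Chga* per kb at 9.54. *Slc30a8*, the granule zinc transporter of beta cells, and *Dbh*, the enzyme of noradrenaline synthesis, were under the minimum level at 1.24 and 0.88.

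**Figure D2:**
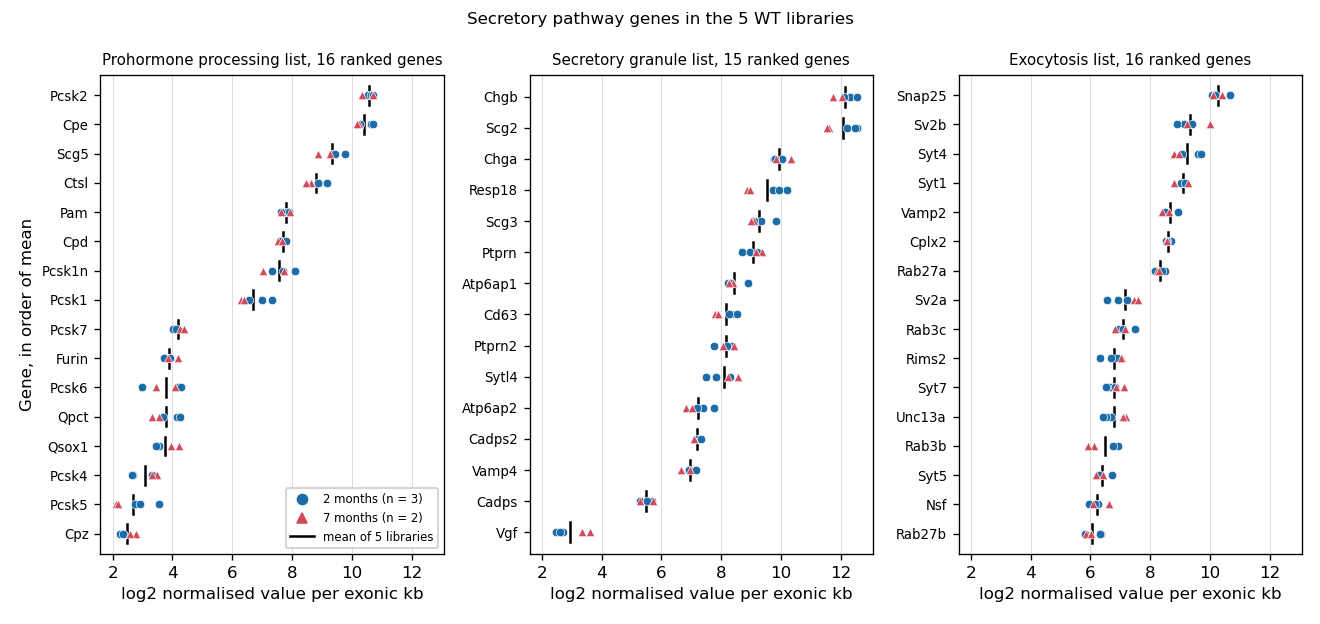
Per-kb level (log2 normalised value per exonic kilobase) of the ranked members of the processing and granule lists and of 16 members of the exocytosis list, by WT library (2 months circles, 7 months triangles, black line the mean of 5). *Pcsk2* and *Cpe* lead the processing list at 10.59 and 10.41, *Chgb* and *Scg2* the granule list at 12.15 and 12.08, and *Snap25* the exocytosis list at 10.27.

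Release genes followed. All 23 exocytosis genes were ranked and 8 (34.8%) were among the first 1000, *Snap25*, *Syt1*, *Sv2b*, *Syt4*, *Cplx2*, *Vamp2* and *Rab3c* among them. *Snap25*, the membrane SNARE on which granule fusion depends, stood at 12.84, 12.93 and 13.42 at 2 months and at 12.86 and 13.15 at 7 months. The vesicle calcium sensor gene *Syt1* and its relative *Syt4* could not be ordered per kb, since *Syt4* was above in 3 of 5 libraries by 0.15 ± 0.35. *Stx1a*, a SNARE partner of *Snap25*, was at a log2 level of 4.32 and 2.91 per kb. In all, 20 members of the processing, granule and exocytosis lists were among the first 1000 by log2 level and 23 by per-kb level.

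Chaperones and folding enzymes of the endoplasmic reticulum were among the highest genes, and the genes of protein entry were mixed. Of 24 ranked genes of the secretory pathway list, 8 (33.3%) were among the first 1000 by log2 level and 12 by per-kb level. The chaperones *Hsp90b1* and *Hspa5* were at 11.66 and 10.85 per kb, and the disulphide isomerase *Pdia3* at 10.90. *Canx*, *Ssr3*, *Ssr1*, *Calr* and *P4hb* completed the 8. Of the genes of the translocation channel and its partners, *Ssr3* and *Ssr1* were at 9.85 and 7.88 per kb. In contrast, *Ssr2*, *Sec61a1*, *Sec61b*, *Sec61g* and *Ssr4* were outside the first 1000 on both scales. Their per-kb levels ran from 6.60 for *Ssr2* to 5.27 for *Ssr4*. Of the signal peptidase genes, *Spcs2* and *Spcs3* were inside by per-kb level, at 8.59 and 7.79, and *Spcs1*, *Sec11a* and *Sec11c* were outside, at 6.64, 5.86 and 5.31. The summed log2-back-transformed level of the list took 0.660% to 0.904% of the nuclear total, lowest in 7-month replicate 1.

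The promoters of *Pomc* and of the 3 highest secretory genes with the function of cargo or convertase are shown because these genes carry the secretory character of the tissue in the values above. Each is the 250 bases before the RefSeq start of the gene (GRCm38.p6, written on the strand of the gene, 5′ to 3′). The *Pomc* window is chr12:3954695-3954944 on the plus strand, the *Pcsk2* window chr2:143545883-143546132 on the plus strand, the *Chgb* window chr2:132781392-132781641 on the plus strand and the *Scg2* window chr1:79440027-79440276 on the minus strand. Capitals mark the letters TATAAA in *Pomc*, the E-box CAGCTG in *Pcsk2* and the cAMP response element TGACGTCA in *Chgb* and *Scg2*.
Pomc: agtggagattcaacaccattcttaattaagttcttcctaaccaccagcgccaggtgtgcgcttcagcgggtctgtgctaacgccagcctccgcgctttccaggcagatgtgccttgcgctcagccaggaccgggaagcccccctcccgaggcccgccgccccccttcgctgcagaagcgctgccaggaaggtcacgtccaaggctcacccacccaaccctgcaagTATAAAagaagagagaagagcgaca
Pcsk2: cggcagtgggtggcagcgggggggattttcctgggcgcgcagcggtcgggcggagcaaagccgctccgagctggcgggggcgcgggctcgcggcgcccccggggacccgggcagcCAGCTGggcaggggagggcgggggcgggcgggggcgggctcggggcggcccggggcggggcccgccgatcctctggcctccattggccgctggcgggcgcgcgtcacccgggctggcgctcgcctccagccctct
Chgb: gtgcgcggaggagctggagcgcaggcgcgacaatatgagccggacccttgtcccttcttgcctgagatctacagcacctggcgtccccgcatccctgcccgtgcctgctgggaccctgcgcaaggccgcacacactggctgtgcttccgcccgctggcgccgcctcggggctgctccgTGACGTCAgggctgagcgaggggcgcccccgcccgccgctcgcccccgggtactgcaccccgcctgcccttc
Scg2: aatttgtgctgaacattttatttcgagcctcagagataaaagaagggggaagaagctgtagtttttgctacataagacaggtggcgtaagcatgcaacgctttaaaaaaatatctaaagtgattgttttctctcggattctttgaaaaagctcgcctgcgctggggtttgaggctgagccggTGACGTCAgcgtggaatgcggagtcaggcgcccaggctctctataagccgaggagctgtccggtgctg
In *Pomc* the TATAAA letters began 25 bases before the start. In *Chgb* and *Scg2* the TGACGTCA letters began 72 and 68 bases before the start.

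Those letters were read against all promoters of the same length. TGACGTCA (the same on both strands) stood in 1.62% of 27025 promoters, in 2.69% of those of ranked genes and in 5 of the first 100 genes by log2 level that had a promoter in the table. TATAAA, searched on the strand of the gene, stood in 8.12% of all promoters and in 6 of those 100. CAGCTG stood in 12.8% and in 9, and it is the same on both strands. TCACACC, the core letters of a T-box site, stood in 3.31% of all and in 3 of the 100, and AAAGGTCA, the letters bound by Nr4a factors, in 1.31% and in 0, with both strands searched for each. Neither of the last pair was in the 4 windows shown. A match is a description of letters and not a site.

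The listed transcription factors had a high share among the first ranks. Of 40 listed, 36 were ranked, 11 (30.6%) were among the first 1000 by log2 level and 13 by per-kb level. High by per-kb level were the ETS factor *Etv1* (9.53), *Zbtb20* (9.09) and *Creb3l2* (9.06), a membrane-bound factor of the secretory pathway. *Etv1* was above *Zbtb20* in 5 of 5 libraries, while *Zbtb20* and *Creb3l2* could not be ordered (2 of 5). *Etv1* had log2 levels of 12.13, 12.18 and 12.28 at 2 months and of 11.66 and 12.18 at 7 months, lowest in 7-month replicate 1 and with overlapping ages. *Pax7*, *Rorb*, *Foxo1*, *Six3*, *Egr1* and *Nr4a2* were among the first 1000 as well.

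The lineage factors *Pax7* and *Tbx19* had SDs of 0.13 and 0.11 at log2 level, below those of *Etv1*, *Zbtb20* and *Creb3l2* (0.15 to 0.24). *Pax7*, the pioneer factor of the melanotroph fate, was at log2 levels of 11.23, 11.35 and 11.27 at 2 months and 11.56 and 11.37 at 7 months. *Tbx19*, which POMC cells of both lobes need, was at 9.79, 9.71 and 9.89 at 2 months and at 9.90 and 9.65 at 7 months, with overlapping ages. Per kb, *Tbx19* lay below *Pax7* in 5 of 5 libraries, with a difference of -0.69 ± 0.15. *Neurod1*, a factor of corticotrophs, was at a log2 level of 4.35 ± 0.44, and *Pax7* exceeded it per kb by 5.90 ± 0.52. *Lhx4*, *Foxl2* and *Hesx1* were under the minimum level, at mean log2 levels of 0.20 for *Hesx1* to 1.96 for *Lhx4*.

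**Figure D3:**
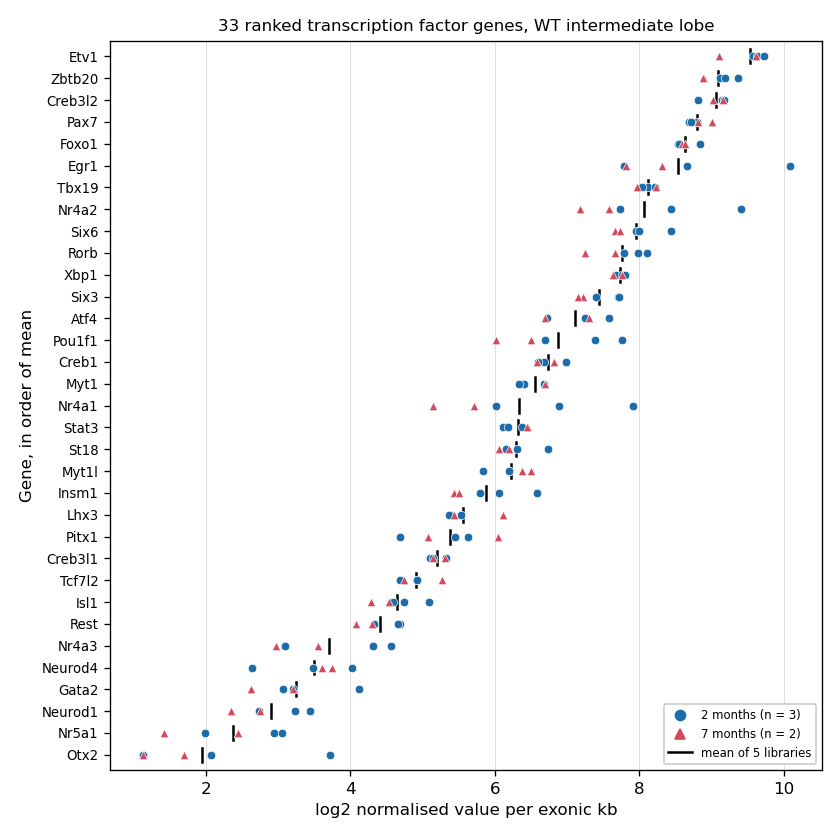
Per-kb level (log2 normalised value per exonic kilobase) of 33 ranked transcription factor genes by WT library (2 months circles, 7 months triangles, black line the mean of 5). *Pax7* and *Tbx19* cluster tightly (SD 0.13 and 0.11), while *Egr1*, *Nr4a2* and *Nr4a1* spread (SD 0.94, 0.88 and 1.08) with 2-month replicate 3 highest in each.

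*Drd2* was the only G protein-coupled receptor of 47 listed that reached the first 1000, and 25 of the 47 were ranked. The share of 4% of the ranked members is below the background. *Drd2* had log2 levels of 10.96, 10.97 and 11.62 at 2 months and of 10.92 and 10.89 at 7 months, so that 2-month replicate 3 stood alone above 4 close values. The next by per-kb level, *Glp1r*, the receptor for glucagon-like peptide, was lower by 3.33 ± 0.68 in 5 of 5 libraries, with 6.39 against 9.72. *Casr*, the calcium-sensing receptor, followed at 6.09 and *Gabbr1*, a subunit of the GABA-B receptor, at 5.51. *Crhr1*, the receptor for corticotropin-releasing hormone, was near the minimum at a log2 level of 3.40.

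The 22 receptors under the minimum included the other dopamine receptors, *Drd1*, *Drd3*, *Drd4* and *Drd5*, at log2 levels of -1.60 for *Drd5* to 1.87 for *Drd1* and *Drd3*. The rest were *Trhr*, *Htr1a*, *Oprd1*, *Ghsr*, *Prokr1*, *Adora2a*, *Adra2a*, *Npy2r*, *Adra1b*, *Npy5r*, *Htr4*, *Crhr2*, *Sstr2*, *Galr1*, *Mc5r*, *Mc4r*, *Adra2c* and *Sstr5*. Among receptors of other classes, 5 of 20 ranked (25%) were in the first 1000 by log2 level, which were *Igf1r*, *Il6st*, *Bmpr1a*, *Insr* and *Ntrk2*. By per-kb level 3 were, without *Insr* and *Ntrk2*. *Igf1r*, the receptor for insulin-like growth factor, was the highest per kb at 9.38 and varied little at log2 level (11.55 ± 0.06). *Ret* and *Rxrg* were under the minimum.

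Ligand-gated subunits were led by the GABA-A receptor and by an AMPA receptor subunit. Of 25 listed, 21 were ranked and 3 (14.3%) were in the first 1000, *Gria2* and *Gabrb1* among them. By per-kb level 4 were, with *Gabra2* added. *Gabrb1* had log2 levels of 10.29, 10.32 and 10.58 at 2 months and 9.92 and 10.40 at 7 months, with overlap. Per kb, *Gabra2* exceeded *Gabra4* by 2.34 ± 0.43. *Chrna3*, *Chrna7*, *P2rx2* and *Gabrd* were under the minimum.

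Channel genes differed little from the background in their share of the first ranks. Of 15 ranked calcium channel genes, *Cacna2d1* and *Cacna1d* were in the first 1000 (13.3%), of 10 sodium channel genes *Scn2a* was (10%), and of 30 potassium and HCN channel genes none was by log2 level, which is 3 of 55 in all (5.45%) against a background of 6.1%. By per-kb level 2 were, *Cacna2d1* and *Kcnb2*, and no sodium channel gene was. *Cacna2d1*, an auxiliary subunit, led per kb at 8.70. *Cacna1d*, the pore of an L-type channel, was at log2 levels of 10.24, 10.16 and 10.27 at 2 months and 10.76 and 10.55 at 7 months. It exceeded *Cacna1a*, the pore of the P/Q-type channel, per kb by 1.40 ± 0.26 in 5 of 5. *Scn2a* and *Nalcn*, the sodium leak channel, were at 7.00 and 6.96 per kb and could not be ordered (*Scn2a* above in 3 of 5).

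The delayed rectifier gene *Kcnb2* led the potassium channels at 7.75 per kb, with log2 levels of 9.34, 9.18 and 9.43 at 2 months and 8.94 and 9.10 at 7 months. The ages did not overlap, but the difference was not called (limma, adjusted p = 0.43). *Kcnn3*, a small-conductance calcium-activated channel, was at 7.62 per kb. *Cacna1h*, *Scn10a*, *Scn4b*, *Scn4a*, *Kcnk9*, *Kcnq5*, *Abcc8* and *Hcn2* were under the minimum, and *Kcnj11* was not analysed here.

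**Figure D4:**
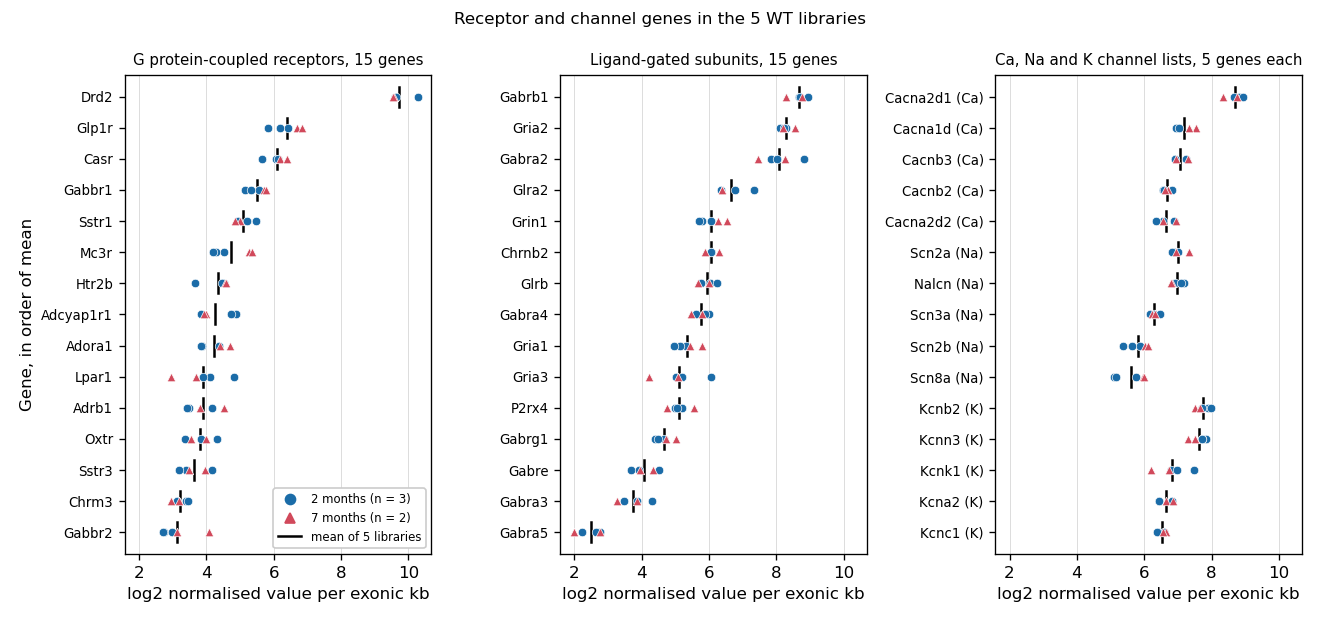
Per-kb level (log2 normalised value per exonic kilobase) of receptor and channel genes by WT library (2 months circles, 7 months triangles, black line the mean of 5). *Drd2* at 9.72 stands 3.33 above the next G protein-coupled receptor, while the leading ligand-gated subunits and channels follow each other in small steps.

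Genes that carry the receptor signal inward were better represented. Of 26 ranked cAMP and G protein genes, 6 (23.1%) were in the first 1000 by log2 level and 9 by per-kb level. *Gnas*, the stimulatory subunit, and *Prkar1a*, a regulatory subunit of protein kinase A, led per kb at 10.46 and 10.24. *Gnas* was the more variable, with log2 levels of 14.31, 13.94 and 13.09 at 2 months and 14.38 and 13.98 at 7 months, and its low value was in 2-month replicate 3. The inhibitory subunits *Gnai1* and *Gnao1*, through which dopamine receptors act, were at 8.61 and 8.49 per kb and could not be ordered (*Gnai1* above in 3 of 5). *Prkacb* and *Gnaq* completed the 6, and *Adcy8* was under the minimum.

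Transcripts of neighbouring tissue were present, and those of the anterior lobe were by far the most abundant. The 8 lists of other cell types had 72 members in the table, not all of them ranked. By log2 level 2 of the 72 were among the first 1000, and both were hormones of the anterior lobe. They made up 22.2% of the 9 ranked anterior lobe genes, against a background of 6.1%. By per-kb level 5 of the 72 were, namely *Prl*, *Gh*, *Fshb*, *Hba-a2* and *Dcn*, against a background of 7.1%. Over the 8 lists together these counts do not set the members apart from the background. *Prl*, the gene of prolactin (chr13:27057570-27065204), had log2 levels of 12.99, 11.86 and 13.57 at 2 months and 13.97 and 12.97 at 7 months. *Gh* (chr11:106300261-106303703) had 13.88, 12.98 and 13.56 at 2 months and 11.56 and 10.64 at 7 months. The ages overlapped for *Prl* and did not for *Gh*, and *Prl* was above *Gh* per kb in 2 of 5 libraries, both of 7 months. *Pomc* was above either gene per kb in every library.

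The anterior lobe list as a whole moved unevenly. Its 11 measured members took 0.478%, 0.245% and 0.493% of the nuclear total at 2 months and 0.376% and 0.193% at 7 months. *Fshb*, the subunit of follicle-stimulating hormone, was at log2 levels of 11.32, 9.55 and 11.26 at 2 months and 6.86 and 6.78 at 7 months, the widest gap between ages of the list. *Pou1f1*, the factor of the growth hormone and prolactin lineage, was at 8.21, 7.53 and 8.58 at 2 months and 7.32 and 6.85 at 7 months. *Tshb*, the thyrotropin subunit, was at 5.15 ± 0.52, and *Trhr* and *Foxl2* were under the minimum. *Lhb* was not analysed here.

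Stem cell genes were at middle ranks. Of 14 listed, 13 were ranked and 1, *Cyp2f2*, was in the first 1000 at log2 levels of 10.47 to 11.07. *Sox2*, the factor of pituitary stem cells that melanotrophs also express, was at 7.75, 7.41 and 7.26 at 2 months and 6.97 and 6.58 at 7 months, with the ages apart and no call (limma, adjusted p = 0.11). *Sox9*, which marks the stem cells, was at 8.33, 8.35 and 8.05 at 2 months and 8.17 and 7.41 at 7 months. Per kb, *Sox2* lay above *Sox9* in 1 of 5 libraries.

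The other lists were low, and single libraries led several. The posterior lobe list took 0.0235% to 0.0937% of the nuclear total and was highest in 2-month replicate 2, where *Scn7a* stood at 11.80 against 8.97 to 9.70 elsewhere and *Col25a1* at 9.91 against 6.56 to 7.88. *Oxt*, the gene of oxytocin, and *Rax* were under the minimum, and *Avp* was not analysed here. The oligodendrocyte list took 0.0073% to 0.0182% and was highest in 7-month replicate 2, with *Olig2*, *Mag* and *Mog* under the minimum. Blood vessel genes took 0.0044% to 0.0094%, with *Cldn5* and *Egfl7* under the minimum. The mural and fibroblast list took 0.0257% to 0.0465%, and *Rgs5* and *Dcn* were its highest members at 7.21 and 8.16 per kb, with *Cspg4* and *Dpt* under the minimum.

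Blood, immune and muscle transcripts took small shares as well. The macrophage and immune list took 0.0100% to 0.0118%, above the blood vessel list in 5 of 5 libraries, with *Tyrobp* and *C1qa* under the minimum. The lists hold different genes, so the order of their sums is not an order of cell numbers. The red blood cell list took 0.0305% in 2-month replicate 3 and 0.0030% to 0.0088% in the other libraries. Its haemoglobin genes *Hba-a1* and *Hba-a2* are near-identical copies, so their reads could have been split between them, and *Hbb-bs* and *Hbb-bt* were not analysed here. Of the muscle and bone list *Col2a1* was ranked, and *Myh2*, *Mylpf*, *Ckm*, *Ibsp*, *Acta1* and *Bglap* were under the minimum, so the high log2 level of *Ttn* came without the other muscle genes listed.

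**Figure D5:**
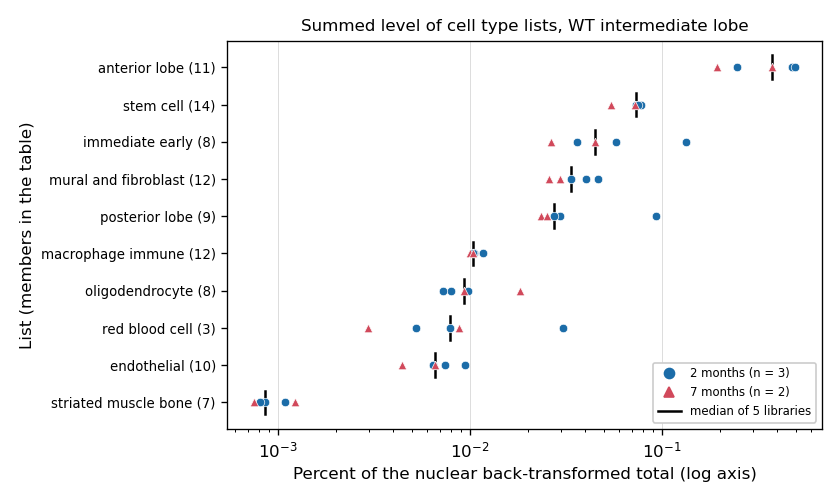
Summed back-transformed level of each cell type list as a percent of the nuclear total (log axis) by WT library (2 months circles, 7 months triangles, black line the median of 5). The anterior lobe list lies highest at 0.193% to 0.493%, and 1 library stands far to the right for the immediate early, posterior lobe, oligodendrocyte and red blood cell lists.

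Immediate early genes, which respond quickly when cells are stimulated, were highest in 1 library. Their list took 0.133% of the nuclear total in 2-month replicate 3 and 0.0265% to 0.0576% in the other libraries. *Egr1* was at a log2 level of 11.71 there against 9.42 to 10.29, *Fos* at 9.12 against 6.59 to 7.96 and *Dusp1* at 11.65 against 8.63 to 10.44. *Nr4a2*, of the transcription factor list, was at 11.43 against 9.19 to 10.46. *Fosb* was highest in 7-month replicate 1, at 7.56. Replicate 3 at 2 months had the highest level of *Drd2*, the highest mitochondrial share and the highest red blood cell share, and the part of these in its values was not tested.

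The most variable named genes among the first 1000 were of several kinds. By range over the libraries they were *Xist*, *Gm10800*, *Gh*, *Egr1*, *Nr4a2*, *Prl*, *Cd24a*, *Tent5a*, *Cdr1* and *Ptn*. *Gm10800*, a predicted gene, ran from 10.85 to 15.10, with 14.69, 13.31 and 15.10 at 2 months and 10.85 and 12.00 at 7 months. *Ptn*, the growth factor pleiotrophin, was at 11.32 in 2-month replicate 2 and at 9.66 to 9.995 elsewhere, the same library that led the posterior lobe list. At the other end, *Atp5b*, *Akap9*, *Peg3*, *Elapor1* and *Son*, the 5 with the smallest range among the first 100 and chosen after their values were seen, had SDs of 0.05 to 0.08.

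Few genes, listed or not, were called between the 7-month and 2-month WT libraries, which differed in *Xist* as well as age. With limma over all 10 libraries, 106 of 16556 genes (0.64%) were called between 7 and 2 months at an adjusted p under 0.05. Of these, 56 were higher (0.338%) and 50 lower (0.302%) at 7 months. In the same limma fit 3089 genes (18.7%) had an unadjusted p under 0.05. Of the 337 list genes tested, 5 were called, 1 higher and 4 lower. *Gh* differed by -2.37 (limma, adjusted p = 0.0175) and *Cga* by -2.22 (limma, adjusted p = 0.0429). *Resp18*, with log2 levels of 9.31, 9.52 and 9.78 at 2 months and 8.43 and 8.55 at 7 months, differed by -1.05 (limma, adjusted p = 0.0289). *Col3a1*, a fibrillar collagen of connective tissue, differed by -1.42 (limma, adjusted p = 0.0468), and *Cacna1a* was higher by 0.85 (limma, adjusted p = 0.0354). Of the 25 highest genes *Gm10800* was called, with a difference of -2.94 (limma, adjusted p = 0.029).

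These calls rested on few libraries. *Xist* split the WT libraries as age did, so adding it as a covariate cannot tell sex from age. Among the list genes, the largest differences that were not called were those of *Fshb* (-3.89, limma, adjusted p = 0.0585), *Hba-a1* (-1.94, adjusted p = 0.273) and *Gnrhr* (-1.75, adjusted p = 0.0850). With log2 *Xist* as a covariate 0 genes were called by limma, with 2088 at an unadjusted p under 0.05, and without 2-month replicate 3 the count was 1, without 7-month replicate 2 it was 5 and without 7-month replicate 1 it was 28. The call of *Gh* held in 14 of 18 alternatives and was lost with no filter, with the *Xist* covariate, without 7-month replicate 2 and without 2-month replicate 3, where the direction stayed the same. The calls of *Resp18*, *Cacna1a*, *Cga* and *Col3a1* held in 12, 9, 8 and 5 of the 18, each with 1 direction throughout. Among the lists, the calcium channel list had 14 of 15 differences above 0 (1 of them called) with a median of 0.30, and the endoplasmic reticulum list had 19 of 24 below 0 with a median of -0.31, against -0.01 over all genes tested. The transcription factor list had 26 of 36 below 0 and the stem cell list 10 of 13, with medians of -0.31 and -0.38. Several lists of other cell types had medians further from 0. Below 0 were 8 of 9 tested anterior lobe genes (median -0.73) and 9 of 10 mural and fibroblast genes (-0.44). So were 6 of 8 blood vessel genes (-0.57) and 4 of 7 posterior lobe genes (-0.99). The posterior lobe list was led by 2-month replicate 2, at 0.0937% of the nuclear total against 0.0235% to 0.0293% elsewhere. The part of these cell type lists in the other lists was not tested. No member of the processing, exocytosis, endoplasmic reticulum, receptor, cAMP or transcription factor lists was called, which does not show that their levels were alike at both ages.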

How the data were processed

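RNA was extracted from dissected intermediate lobes, amplified to cDNA and sequenced (Ovation RNA-seq and Ultralow systems, HiSeq4000). Per the study's methods, the authors aligned reads with STAR (2.5.2a), obtained gene-level read numbers with RSEM from the GRCm38 Ensembl transcriptome, with no strand assumed, and normalised the counts with DESeq2 (1.18.1). The deposited table holds log2 normalised values for 39021 gene IDs; the transform is not given in the sources used here. Values run from -1.90 to 22.14. No counts can be recovered, so read depth is unknown and no counting interval is given.

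Groups and replicates came from the sample titles, and 0 columns were left unmatched. The planned pseudocount was not needed because the values were already log2. A reference table gave symbols for 27874 IDs, updated through RefSeq synonyms, and exonic lengths and GC content from the GENCODE M1 annotation of NCBIM37 by gene ID; coordinates and promoters are those of RefSeq for GRCm38.p6, matched by symbol. Nuclear genes that averaged at least 10 in linear units over the 5 WT libraries were ranked by mean log2 value, and those with a length also per exonic kb. Percentages are of the summed back-transformed nuclear values.

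The 23 gene lists hold 421 genes, of which 415 were in the table and 340 ranked; they and the set of libraries were chosen with earlier results of these data known. Named are the 25 highest genes with a symbol, the 5 markers, list members among the first 1000, the 3 highest per kb and those under the minimum, list members called for age with the 5 largest differences, and the 10 most variable of the first 1000. Age was fitted with limma (3.58.1, R 4.3.3) over all 10 libraries, 1 coefficient per group, a mean-variance trend, 6 residual degrees of freedom and Benjamini-Hochberg adjustment over 16556 genes averaging at least 10 in linear units (called at an adjusted p under 0.05). An exact permutation test of 3 against 2 libraries cannot go below 0.2 and was not used for single genes. The fit was tested on simulated data. P-values measure the spread between these libraries. Alternatives were the filter, pseudocounts of 0.1, 1 and 10, WT libraries only, quantile normalisation, equal totals, quality weights, no trend, a replicate block, log2 *Xist* as a covariate, leaving out each library, other lengths and other rank limits; a GC correction and a list of imprinted genes were added after seeing the data. Some genes of the lists are counted but not reported here by name or plotted.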

Additional observations from a re-analysis of the deposited data

Results flagged for a closer look

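Of 83 values examined over the 5 WT libraries, 8 were flagged. In each, the gap of 1 library to the nearest of the others was a larger part of the whole range than Dixon's limit for 5 values. Chance alone would flag about 1 in 20 of the values examined. No explanation was tested.

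*Drd2* stood at a log2 level of 11.62 in 2-month replicate 3 and at 10.89 to 10.97 in the other libraries. The red blood cell list took 0.0305% of the nuclear total in the same library against 0.00296% to 0.00877%. In 2-month replicate 2, *Ptn* was at 11.32 against 9.66 to 9.995, the posterior lobe list took 0.0937% against 0.0235% to 0.0293%, and *Pomc* exceeded *Chgb* per kb by 4.98 against 4.19 to 4.37. In 7-month replicate 2, the stem cell list took 0.0542% against 0.0727% to 0.0782%, and the oligodendrocyte list 0.0182% against 0.00728% to 0.00973%. In 7-month replicate 1, the imprinted list took 1.82% against 1.54% to 1.61%.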

How the results depend on the processing

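The count of 106 genes called for age in WT was 3 with no filter, 162 with equal totals without mitochondrially encoded genes (114 higher and 48 lower), 49 with library quality weights, 25 with no mean-variance trend, 0 with log2 *Xist* as a covariate (2088 at an unadjusted p under 0.05 in limma) and 65 with the GC correction. Leaving out 1 library gave 1 to 111. The cause of these changes was not tested, except that leaving out a library also leaves fewer samples. It was within 1.5 times of 106 under a minimum of 50, the 3 pseudocounts, WT libraries only and quantile normalisation (106 to 121). With a replicate block the count was 58; replicate numbers are shared by 2 pairs of WT libraries only, their deviations correlated at -0.010 and -0.121, and nothing in the labels pairs them.

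*Pcsk2* less *Pcsk1* per kb was 4.35 with the longest transcript, 5.41 with the coding length and 5.17 with no length correction, and 3.77 to 4.05 with 1 library left out. *Pomc* less the next gene with a length was 2.62 with the coding length, where that gene was *AF085738*. It turned to -0.86 with no length correction, and was 1.76 to 2.09 with 1 library left out. Of the secretory lists 13 members were among the first 500, and the 20 among the first 1000 were 20 to 21 with 1 library left out. Of the neighbouring-tissue lists 5 were among the first 1000 per kb and 4 among the first 2000 by log2 level. Of 3185 recomputed mean levels 20 moved by over 1 SD, all with quantile normalisation. The transform of the deposited values is not known here, and differences between low genes may be understated.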

Other observations

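Imprinted genes, which are expressed from the copy of 1 parent, were prominent in the WT intermediate lobe. The list was written after the ranking had been seen, so its counts are a description. Of 26 genes, 23 were found in the table by symbol and 21 were ranked. Among the first 1000 by log2 level were 8: *Peg3*, *Meg3*, *Gnas*, *Mest*, *Plagl1*, *Zdbf2*, *Usp29* and *Impact*. By per-kb level 9 were. Together the list took 1.54% to 1.82% of the nuclear total, next to 1.31% to 2.5% for the hormone list. These sums are not corrected for length. Per kb, *Peg3* and *Meg3* were at 11.23 and 10.23, against 16.54 for *Pomc*.

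*Peg3*, a zinc finger gene expressed from the paternal copy, had log2 levels of 14.98, 14.89 and 15.03 at 2 months and 14.96 and 14.96 at 7 months, and *Impact* varied as little (10.45 ± 0.06). *Mest* was at 12.02, 12.69 and 12.98 at 2 months and 11.57 and 11.56 at 7 months. *Plagl1*, a zinc finger factor, was at 11.97, 12.20 and 12.98 at 2 months and 11.35 and 11.44 at 7 months. Both had the ages apart and were highest in 2-month replicate 3, and neither difference was called (limma, adjusted p = 0.06 and 0.11). *Meg3*, a non-coding RNA of the maternal copy, was higher in both 7-month libraries (14.79 and 14.58) than in the 2-month libraries (14.13, 14.39 and 14.16), again without a call. *Magel2* and *Peg12* were under the minimum level. *Rian*, *Mirg* and *Kcnq1ot1* were not matched to a single ID by symbol. The counts and the share of the list leave them out, and IDs without a symbol may hold them.

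The IDs ranked 3 and 4 by mean log2 value, ENSMUSG00000102349 (15.72 ± 0.36) and ENSMUSG00000105361 (15.39 ± 0.51), had no symbol in the tables used here.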
